A study of Phyllostachys violascens with 16 samples.

Results

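After 20 days in the cold, shoots of Phyllostachys violascens, the Lei bamboo whose spring shoots are eaten, were compared with shoots taken at harvest across all genes of the deposited table. The members are the 4 libraries labelled 20d and the 4 labelled 0d, 8 of the 16 libraries of the series. The other 8 were sampled after 2 and 6 days. Every library was made from total RNA of the middle part of young shoots 30 to 40 cm high, about 10 cm long, with 6 shoots pooled per repeat. Stored shoots were kept at 4 °C in polyethylene bags at 60 to 70% humidity, 30 shoots to a repeat, and the labels give this cold protocol for the 0d libraries too, at day 0. The labels call the 4 repeats of a time biological replicates. The labels give 1 storage temperature for every sample, so cold, time since harvest and packing cannot be told apart.

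A bamboo shoot is a stem that elongates from reserves sent by the rhizome, and cutting it ends that supply. In plants short of carbon or nitrogen, proteins, nucleic acids, chlorophyll and lipids are broken down, in part by autophagy, which carries cell contents to the vacuole, and the released nitrogen is carried as amides such as asparagine. Growth needs the opposite set of activities, with ribosomes, wall synthesis and water channels.

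The label was checked against markers of the parts of a shoot. Homeobox genes of the KNOX class, which mark meristems, held 0.0869 to 0.0884% of the summed FPKM of a 20d library and 0.0878 to 0.0906% at 0d. FPKM is the number of fragments scaled by gene length and library size. Markers of phloem held 0.00906 to 0.00974% at 20d and 0.00815 to 0.00830% at 0d, and markers of the epidermis 0.0210 to 0.0220% at 20d and 0.0127 to 0.0137% at 0d. Xylem markers, which include cellulose synthases taken by name as those of secondary walls, held 0.00728 to 0.00773% at 20d and 0.0384 to 0.0400% at 0d. Most of the xylem share at 0d came from a pair of these cellulose synthase genes, given with the walls below. Genes of photosystems and antennae, as markers of green tissue, held 0.0136 to 0.0138% at 20d and 0.159 to 0.165% at 0d. The ranges of the 2 times overlapped for the KNOX genes and for none of the other 4 lists. Differences were the rule, as 21421 of all 24944 genes tested had an adjusted p below 0.05 by the edgeR test given below. By the calls defined below, 3 of 19 tested KNOX genes were higher and 5 lower. Of 17 epidermis genes 7 were higher and 3 lower, but 5 and 5 under total-count scaling and 1 and 1 among those averaging 5 FPKM or more. Members with 0 counts in every library of a time numbered 4 at 20d and 3 at 0d of 28 KNOX genes, 7 and 2 of 20 xylem genes, 3 and 3 of 10 phloem genes, 44 and 35 of 93 epidermis genes, and 14 and 7 of 59 genes of green tissue. Fewer of all genes also reached an FPKM of 1 at 20d, as given below. Fewer cells of a type and less RNA per cell cannot be told apart in such whole segments, and the part of cell makeup in the results below was not tested.

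The deposited counts summed to 51.7 to 63.8 M (megacounts) per 20d library and 54.3 to 64.9 M per 0d library, and 22723 to 22786 genes reached an FPKM of 1 at 20d against 25704 to 25819 at 0d. No library stood apart from its group in either measure. A gene was called when its Benjamini-Hochberg adjusted p from the edgeR quasi-likelihood test was below 0.05 and its log2 change, 20d minus 0d, was at least 1 in size. Of 24944 genes tested, 4863 were called higher at 20d (19.5%) and 6106 lower (24.5%), 44% in all. The share of the called genes that were higher was 44.3% under the TMM scaling used here, but 31.0% under total-count scaling, 31.2% in limma on log2(FPKM + 1) and 34.1% in limma on log2(FPKM + 5). TMM factors of 0.911 to 0.916 at 20d and 1.14 at 0d place log2 changes about 0.32 above its value under total-count scaling, which is the scale of FPKM. The median log2 change of all tested genes was 0.02 under TMM and -0.30 under total-count scaling. Replicates were close: for the 11339 genes averaging 10 FPKM or more the median coefficient of variation was 4.03% at 20d and 4.06% at 0d. For genes with mean counts of 100 to 1000 the median ratio of variance to mean was 3.58 at 20d and 4.19 at 0d. It was 4.04 at 20d and 4.63 at 0d for counts of 1000 to 10000. From 10000 counts on it was 5.94 at 20d and 6.52 at 0d. Counting noise alone, at an assumed 4 deposited counts per fragment, gives 3.15. With so little spread between pools adjusted p-values were small even for modest changes. As each library pools 6 shoots, the p-values and SEs given here do not measure the spread between single shoots. The largest adjusted p-value among the called genes named here was 2.79e-04 by edgeR. Of those genes, the rises of oryzain alpha, xanthine dehydrogenase, pheophorbide a oxygenase PH02Gene03620, lysine ketoglutarate reductase, GABA transaminase 1, alpha-glucan water dikinase, 60S L28-1-like, 60S L35a-3, stromal Hsp70 PH02Gene33841, expansin-like A1, cellulose synthase subunit 5, catalase isozyme B PH02Gene29448, NAC29-like PH02Gene22100 and histone H2B.2-like fell below the limit under total-count scaling, at 0.74 to 0.98.

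**Figure D1:**
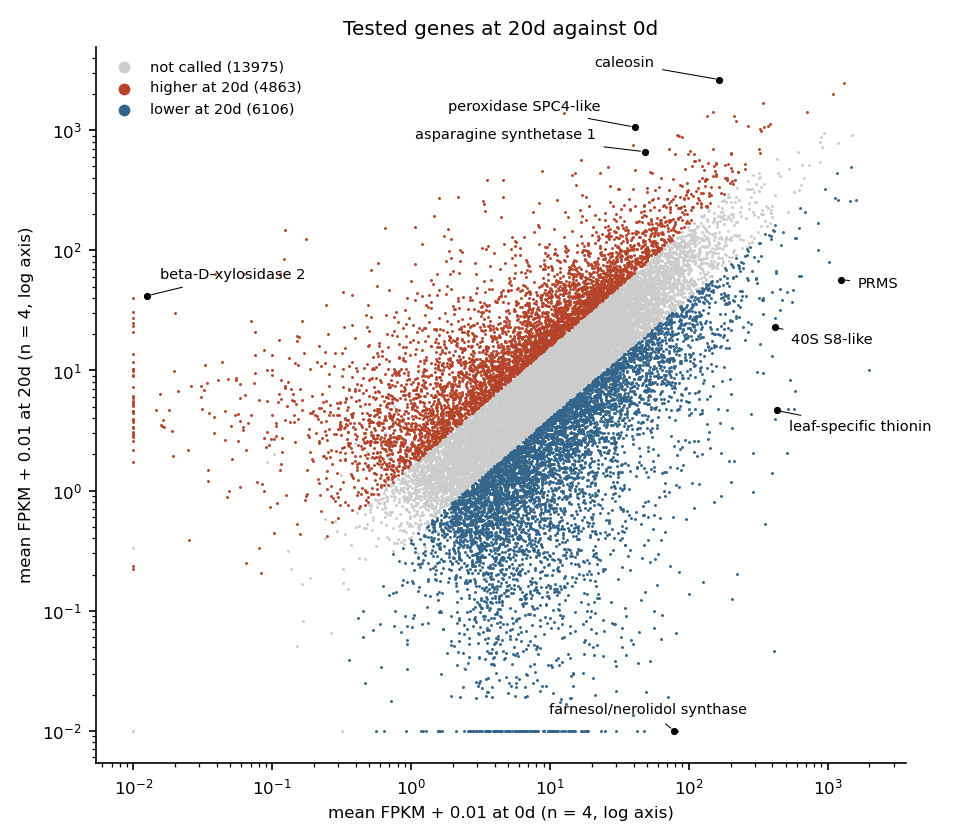
Mean FPKM of each of 24944 tested genes at 20d (vertical) against 0d (horizontal), with 0.01 added and both axes on a log scale; red points are the 4863 genes called higher at 20d and blue points the 6106 called lower. Points on the bottom edge had 0 counts at 20d and points on the left edge 0 counts at 0d.

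The 8 genes with an informative description that gained most in level were caleosin, oryzain alpha, homocysteine S-methyltransferase 3, endonuclease 2, a cationic peroxidase, heme oxygenase 1, a GDSL esterase and an NRT1/PTR transporter. Caleosin (PH02Gene08095, scaffold 17, 14057663 to 14059459), a calcium-binding protein of the surface of lipid droplets, had 2619, 2592, 2720.2 and 2637 FPKM at 20d, against 167, 164, 166 and 166 FPKM at 0d. All 20d libraries stood far above all 0d libraries, and caleosin had the largest gain in level of any described gene (log2 change 4.31, SE 0.02, adjusted p = 2.75e-36). Homocysteine S-methyltransferase 3 (PH02Gene42561), which makes methionine from homocysteine, had 1742, 1660.2, 1706 and 1663 FPKM at 20d, against 339, 340.1, 350.0 and 349 FPKM at 0d (log2 change 2.61, SE 0.03). Endonuclease 2 (PH02Gene20219, scaffold 14, 103961443 to 103965215), a nuclease of single-stranded nucleic acids, had 1343, 1308, 1327 and 1319 FPKM at 20d, against 137, 133, 133 and 134 FPKM at 0d (log2 change 3.61, SE 0.02). In both genes the groups were far apart. The endonuclease gene overlaps another endonuclease 2 gene on the opposite strand (PH02Gene20220), and as the strand setting of the counting is not given in the sources used here, reads of the pair may have been split.

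Oryzain alpha (PH02Gene45588), a papain-like cysteine protease described in rice seeds, was already abundant at harvest and had 2443, 2486, 2457 and 2490.5 FPKM at 20d, against 1315, 1321, 1308 and 1321 FPKM at 0d (log2 change 1.22, SE 0.02). A cationic peroxidase like SPC4 (PH02Gene06848) had 1042, 1069, 1083 and 1046 FPKM at 20d, against 40.7, 39.97, 41.7 and 42.1 FPKM at 0d (log2 change 5.0, SE 0.05), the largest log2 change among the 8 described genes with the largest gains in level. Class III peroxidases of this kind are secreted enzymes that oxidise phenolics in the wall. Heme oxygenase 1 (PH02Gene39434), which opens the heme ring on the way to the phytochrome chromophore, had 914, 933, 934 and 903 FPKM at 20d, against 84.2, 84.1, 81.4 and 81.2 FPKM at 0d (log2 change 3.79, SE 0.02). A GDSL esterase or lipase (PH02Gene08251) rose by 2.33 (SE 0.03), with 1075 ± 19.1 FPKM at 20d and 266 ± 6.66 FPKM at 0d (SD, n = 4 in each group here and below). An NRT1/PTR family 8.3-like gene (PH02Gene12468), whose Arabidopsis counterpart transports dipeptides, rose by 3.63 (SE 0.02), with 885 ± 5.57 FPKM at 20d and 88.8 ± 1.76 FPKM at 0d.

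Among described genes, PRMS, an auxin-repressed protein, a ferulate 5-hydroxylase, a catalase, a glutathione S-transferase, an O-methyltransferase and a pair of tumor protein homologs lost most in level. PRMS (PH02Gene48686, scaffold 5, 20701833 to 20706114), a pathogenesis-related protein of the PR-1 family described in maize, had 57.6, 56.1, 55.4 and 59.1 FPKM at 20d, against 1255, 1244, 1286 and 1234 FPKM at 0d (log2 change -4.15, SE 0.03, adjusted p = 5.96e-33). It was among the most abundant transcripts of the harvested shoot, and all 20d libraries lay far below. The auxin-repressed 12.5 kDa protein gene (PH02Gene21281) had 256, 258, 271 and 251 FPKM at 20d, against 1469, 1462, 1434 and 1400.3 FPKM at 0d (log2 change -2.16, SE 0.04). A putative ferulate 5-hydroxylase (PH02Gene08874), the enzyme that directs lignin precursors to syringyl units, had 262, 266, 257 and 259.8 FPKM at 20d, against 1200.0, 1183, 1201 and 1136 FPKM at 0d (log2 change -1.86, SE 0.03). Both fell in every 20d library relative to every 0d library. A catalase (PH02Gene05658), which breaks down hydrogen peroxide, had 492 ± 6.98 FPKM at 20d and 1460.2 ± 23.7 FPKM at 0d (log2 change -1.25, SE 0.04). Glutathione S-transferase 1 (PH02Gene00763) had 99.9 ± 6.09 FPKM at 20d and 848 ± 9.65 FPKM at 0d (log2 change -2.77, SE 0.04), and acetylserotonin O-methyltransferase 1 (PH02Gene42942), which methylates N-acetylserotonin to melatonin, had 169 ± 4.89 FPKM at 20d and 856 ± 8.50 FPKM at 0d (log2 change -2.03, SE 0.02). Genes of 2 translationally-controlled tumor protein homologs completed the 8. PH02Gene29592 fell by 1.74 (SE 0.02), with 273 ± 6.13 FPKM at 20d and 1133 ± 17.4 FPKM at 0d, and PH02Gene29502 by 1.08 (SE 0.02), with 442 ± 12.9 FPKM at 20d and 1164 ± 27.4 FPKM at 0d.

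**Figure D2:**
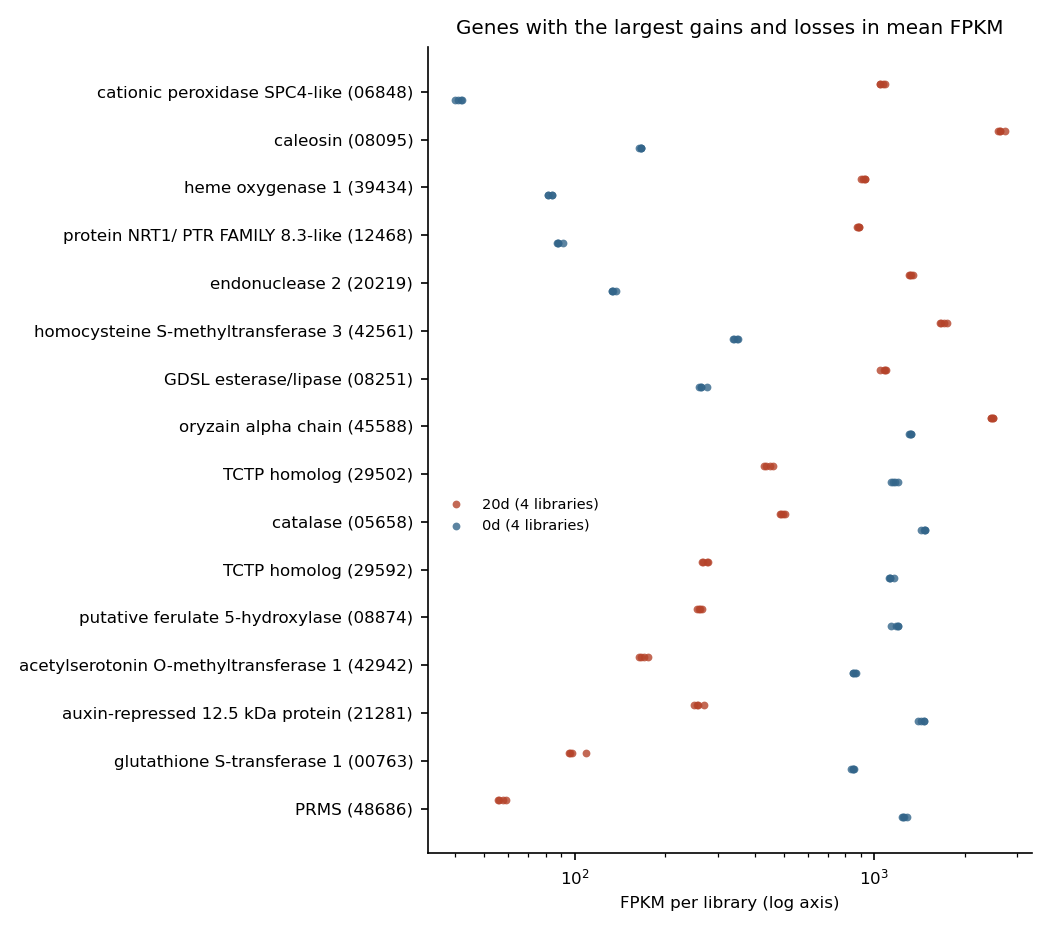
FPKM of every library (log axis) for the 8 called genes with the largest gain and the 8 with the largest loss in mean FPKM, with the last 5 digits of the gene identifier; red points are the 4 libraries at 20d and blue points the 4 at 0d. Caleosin, the largest gain, lies between 2592 and 2720.2 FPKM at 20d and between 164 and 167 FPKM at 0d.

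Some genes were all but silent at one of the times. Among tested genes averaging 5 FPKM or more in the other group, 21 had 0 counts in all 0d libraries and 78 had 0 counts in all 20d libraries. Where a group held 0 counts a floor of 3 fragments over the group, taken as 12 deposited counts, gives a lower bound for the ratio. The 8 rises and 8 falls given next had the largest fitted log2 changes among described genes averaging 5 FPKM or more over the 8 libraries. For a gene at 0 counts the fitted change depends on the prior count, so this is no measured order, and genes outside the 16 had ratios above several of these bounds. Dehydrin DHN3 (PH02Gene07646, scaffold 13, 30469947 to 30470837), a hydrophilic protein of dehydrated and cold-exposed plant tissue, had 23.6, 23.01, 23.4 and 24.3 FPKM at 20d and 0 at 0d, at least 499.6-fold higher. Flavonoid O-methyltransferase-like genes PH02Gene44840 and PH02Gene24615 on scaffold 13 were at least 573-fold and at least 366-fold higher. At 20d PH02Gene44840 had 14.7, 14.2, 13.9 and 12.5 FPKM and PH02Gene24615 had 7.14, 11.9, 10.6 and 11.5 FPKM, and both had 0 counts at 0d. They lie near each other, and reads of such similar genes may have been split. A 4-hydroxyphenylacetaldehyde oxime monooxygenase-like gene (PH02Gene41830), named after a cytochrome P450 of cyanogenic glucoside synthesis in sorghum, was at least 472-fold higher at 10.2 FPKM. DMP2 (PH02Gene26343) was at least 364-fold and the copper protein uclacyanin-3 (PH02Gene32687) at least 182-fold higher.

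The other 2 rises were in wall-degrading enzymes. Beta-D-xylosidase 2 (PH02Gene33530, scaffold 1, 3956429 to 3959596), an enzyme that releases xylose from xylan chains, had 40.7, 43.1, 41.4 and 42.2 FPKM at 20d, and at 0d 2 deposited counts in replicate 1 and 0 in the other libraries. The ratio was 18312 (95% interval 1643 to 361730.0), and without 0d replicate 1 it was at least 2239-fold. A polygalacturonase (PH02Gene43221), which cuts pectin, had 31.8, 29.05, 28.8 and 29.96 FPKM at 20d and 4 deposited counts in 0d replicate 4 and 0 in the others, a ratio of 3629.5 (95% interval 651 to 143420.0), or at least 921-fold without that library. The ratios use the deposited counts, whereas the intervals round the counts of the low group up to whole fragments and cover counting error only.

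The 8 falls were all of genes at 0 counts in every 20d library. A farnesol/nerolidol synthase (PH02Gene10446, scaffold 15, 41966571 to 41971950), which makes volatile sesquiterpene alcohols, had 76.001, 78.4, 78.2 and 81.7 FPKM at 0d and was at least 2542-fold lower. Of the others 4 encode parts of the photosynthetic apparatus. The LHCII type 1 antenna gene PH02Gene45538 (scaffold 14, 36895247 to 36896491) had 47.7, 45.9, 48.7 and 46.6 FPKM at 0d and was at least 904-fold lower, and the 10 kDa polypeptide gene of photosystem II PH02Gene08265 had 42.4, 41.6, 41.9 and 43.8 FPKM and was at least 696-fold lower. The chlorophyll a/b binding genes PH02Gene17893 and PH02Gene07012 were at least 469-fold and 411-fold lower. The subtilisin-like protease SBT1.7 (PH02Gene09501), which helps release seed coat mucilage in Arabidopsis, fell at least 800.1-fold to 0 counts, against 14.3 FPKM at 0d. The vacuolar amino acid transporter AVT1I (PH02Gene34870) was at least 528-fold and a thaumatin-like protein (PH02Gene32525) at least 345-fold lower.

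Gene lists were made from the deposited descriptions, and each is set beside the shares over all genes, 19.5% higher and 24.5% lower. Counts given among genes averaging 5 FPKM or more stand beside 2867 higher and 3370 lower of all 16195 genes under that filter. How many members of a list passed it is not given here. Autophagy, cysteine proteases, chlorophyll breakdown, fatty acid breakdown in the peroxisome and sugar transporters each had more members higher than lower at 20d, under total-count scaling too. Ribosomal proteins, photosystem genes, expansins and terpene synthases had more lower than higher under both scalings, the last in a list added after values were seen. Several other lists of breakdown did not lean to higher levels or turned with the scaling, as given with each. Total-count scaling shifts all genes, with 3455 higher and 7698 lower of the 24944 tested. A turn to more lower than higher under it is therefore no trait of a list by itself.

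**Figure D3:**
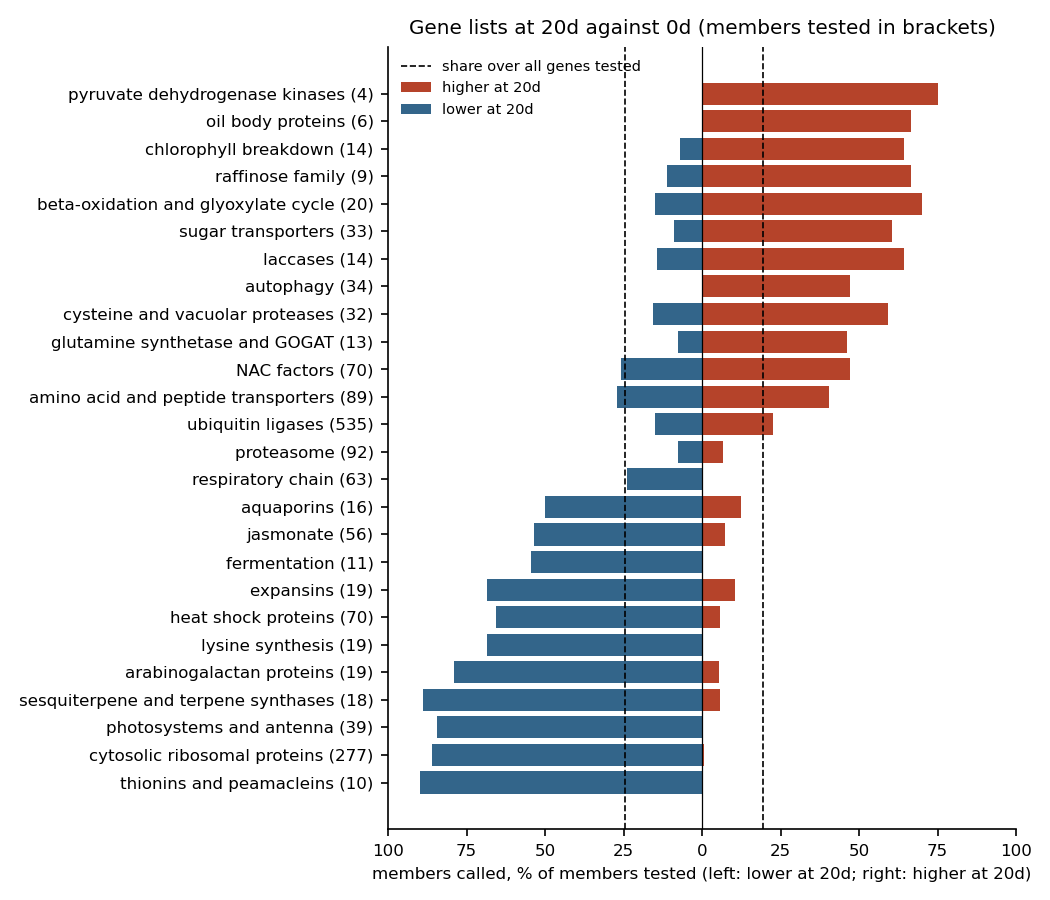
Share of the tested members of 26 gene lists called higher at 20d (red, to the right) and lower at 20d (blue, to the left), in percent of members tested; dashed lines mark 19.5% and 24.5%, the shares over all genes. Thionins, terpene synthases, cytosolic ribosomal proteins and photosystem genes lie farthest to the lower side, and pyruvate dehydrogenase kinases and beta-oxidation genes far to the higher side. The lists of thionins, terpene synthases, oil body proteins and lysine synthesis were added after values were seen.

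Of 34 autophagy genes 16 were higher and 0 lower at 20d, with a median log2 change of 0.91. Both leading members encode ATG8C, the small ubiquitin-like protein that is bound to the growing autophagosome membrane. PH02Gene25011 had 1118, 1138, 1149.5 and 1129.5 FPKM at 20d, against 384, 379, 392 and 375 FPKM at 0d (log2 change 1.88, SE 0.02), and PH02Gene12244 had 991 ± 14.2 FPKM at 20d and 329 ± 12.2 FPKM at 0d (log2 change 1.9, SE 0.02). ATG3 (PH02Gene02916), the enzyme that hands ATG8 to the membrane lipid, had 177 ± 1.84 FPKM at 20d and 68.5 ± 0.460 FPKM at 0d (log2 change 1.68, SE 0.02). The summed level of the list was 0.718 to 0.725% of FPKM at 20d and 0.291 to 0.299% at 0d. Of 32 cysteine and vacuolar proteases 19 were higher and 5 lower (median 1.42). After oryzain alpha the most abundant were cathepsin B-like protease 2 (PH02Gene18957), with 1080.3, 1097, 1076 and 1092 FPKM at 20d, against 373, 374, 363 and 378 FPKM at 0d (log2 change 1.86, SE 0.02), and a cathepsin B-like gene (PH02Gene45744), with 299.8 ± 14.5 FPKM at 20d and 122 ± 12.9 FPKM at 0d (log2 change 1.6, SE 0.07). The most abundant of those that fell were metacaspase-5 (PH02Gene03878, -1.14, SE 0.06), metacaspase 9 (PH02Gene32321, -1.34, SE 0.09) and XCP2 (PH02Gene10076, -1.72, SE 0.19), a protease of maturing xylem vessels in Arabidopsis, which is a xylem marker as well. In sum the list held 1.27 to 1.30% of FPKM at 20d and 0.527 to 0.537% at 0d. The larger list of 104 aspartic and serine proteases counted 32 higher and 39 lower (median -0.20), and 25 and 44 under total-count scaling, but 21 and 14 among genes averaging 5 FPKM or more.

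The proteasome, the other main route of protein breakdown, showed few calls. Of 92 proteasome genes 6 were higher and 7 lower (median 0.31), both below the shares over all genes, against 3 and 11 under total-count scaling and 7 and 6 without 0d replicate 2. The most abundant over the 8 libraries, alpha type-2 (PH02Gene16939), was not called (log2 change 0.62, SE 0.04). Regulatory subunit S10B homolog B (PH02Gene38452), an ATPase of the cap, had 153 ± 1.11 FPKM at 20d and 57.9 ± 2.20 FPKM at 0d (log2 change 1.72, SE 0.02), while the ubiquitin receptor RPN13 (PH02Gene30228) had 28.4 ± 1.65 FPKM at 20d and 94.7 ± 3.52 FPKM at 0d (log2 change -1.42, SE 0.05). Ubiquitin ligases counted 120 higher and 81 lower of 535, a balance that turned to 84 higher and 106 lower under total-count scaling. The RING ligases RZFP34 (PH02Gene05035, log2 change 1.79, SE 0.02), RHB1A (PH02Gene10920, log2 change 1.85, SE 0.03) and RGLG1-like (PH02Gene06835, log2 change 2.35, SE 0.02) were the most abundant that rose, with 433, 394 and 353 FPKM at 20d.

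Of 8 nucleases 4 were higher and 3 lower. Beside endonuclease 2, its overlapping partner PH02Gene20220 had 27.4 ± 0.868 FPKM at 20d and 1.59 ± 0.157 FPKM at 0d (log2 change 4.42, SE 0.09). Ribonuclease 2 gene PH02Gene29820 rose (log2 change 2.39, SE 0.13) and its neighbour PH02Gene29819 fell (log2 change -1.02, SE 0.14), a call lost without 20d replicate 2 (-0.99) or 20d replicate 4 (-0.92). Of 38 genes of nucleotide breakdown 14 were higher and 10 lower, against 10 and 12 under total-count scaling. Guanosine deaminase (PH02Gene36962), which starts the breakdown of guanosine, had 624, 632, 643 and 629 FPKM at 20d, against 94.999, 99.5, 98.9 and 98.4 FPKM at 0d (log2 change 3.0, SE 0.02). The chloroplastic dihydropyrimidine dehydrogenase (PH02Gene04864), first enzyme of pyrimidine breakdown, had 561, 574, 570.1 and 565 FPKM at 20d, against 120.4, 114, 118 and 119 FPKM at 0d (log2 change 2.58, SE 0.02). Both stood above harvest in each library. Xanthine dehydrogenase (PH02Gene38869), which makes urate, had 243 ± 6.15 FPKM at 20d and 123 ± 2.87 FPKM at 0d (log2 change 1.3, SE 0.02). Adenine phosphoribosyltransferase 1 (PH02Gene15836), which recycles adenine instead of degrading it, had 19.7 ± 0.929 FPKM at 20d and 179.8 ± 2.89 FPKM at 0d (log2 change -2.88, SE 0.04), and an allantoate deiminase (PH02Gene33300), a late step of purine breakdown, fell as well (log2 change -1.13, SE 0.04).

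Of 14 genes of chlorophyll breakdown 9 were higher and 1 lower (median 1.43). Stay-green protein (PH02Gene05142), which takes magnesium out of chlorophyll, had 98.2, 97.2, 96.6 and 97.7 FPKM at 20d, against 30.8, 29.6, 30.5 and 27.9 FPKM at 0d (log2 change 2.03, SE 0.06). Red chlorophyll catabolite reductase (PH02Gene27204) had 70.8 ± 3.45 FPKM at 20d and 20.8 ± 0.774 FPKM at 0d (log2 change 2.08, SE 0.04). Both rose, while pheophorbide a oxygenase, which opens the ring, had one gene higher (PH02Gene03620, log2 change 1.27, SE 0.18) and a weakly expressed one lower (PH02Gene11023, log2 change -1.07, SE 0.08). The most abundant member over the 8 libraries, 7-hydroxymethyl chlorophyll a reductase (PH02Gene39091), was not called, with 59.5 ± 2.26 FPKM at 20d and 74.2 ± 1.59 FPKM at 0d.

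Of 6 genes of oil body proteins 4 were higher and 0 lower, against 4 and 1 under total-count scaling. The list held 0.554 to 0.579% of FPKM at 20d and 0.0467 to 0.0484% at 0d, most of it caleosin. Peroxygenase-like genes of the same family rose too, PH02Gene11757 with 157, 161, 166 and 160.4 FPKM at 20d, against 34.1, 32.4, 34.2 and 32.1 FPKM at 0d (log2 change 2.59, SE 0.05) and PH02Gene26590 with 50.7 ± 1.35 FPKM at 20d and 17.7 ± 1.35 FPKM at 0d (log2 change 1.83, SE 0.07). The list was added after the level of caleosin had been seen. Of 97 phospholipases and lipases 25 were higher and 37 lower, against 19 and 44 under total-count scaling. SDP1 (PH02Gene29184), the lipase that starts oil breakdown in Arabidopsis seedlings, had 191, 191, 189 and 190.5 FPKM at 20d, against 12.9, 13.2, 12.9 and 15.1 FPKM at 0d (log2 change 4.13, SE 0.05). Its 20d libraries were close together and far above harvest. Non-specific phospholipase C1 (PH02Gene33172) rose (log2 change 1.89, SE 0.04). Patatin-like proteins 2 (PH02Gene41678) and 1 (PH02Gene41681), acyl hydrolases encoded near each other on scaffold 1, fell to 3.31 and 1.99 FPKM at 20d, against 206 and 125 FPKM at 0d. Phospholipase D alpha 1 (PH02Gene10648) fell as well (log2 change -1.46, SE 0.03).

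Fatty acid breakdown in the peroxisome had 14 of 20 genes higher and 3 lower (median 1.64), and its share of FPKM was 0.503 to 0.508% at 20d and 0.157 to 0.158% at 0d. 3-Ketoacyl-CoA thiolase 2 (PH02Gene05899), which releases acetyl-CoA, had 531, 533, 538 and 528 FPKM at 20d, against 136, 139.7, 137 and 138 FPKM at 0d (log2 change 2.26, SE 0.02). Acyl-CoA oxidase 4 (PH02Gene40931), for short chains, had 392 ± 0.401 FPKM at 20d and 132 ± 3.13 FPKM at 0d (log2 change 1.88, SE 0.02), and the glyoxysomal citrate synthase (PH02Gene31942) had 340.4 ± 6.79 FPKM at 20d and 131 ± 1.79 FPKM at 0d (log2 change 1.69, SE 0.02). The members that fell were less abundant and comprised a pair of acetyl-CoA synthetases (PH02Gene25331, -1.81, SE 0.06, and PH02Gene39498, -1.07, SE 0.08) and a multifunctional protein gene (PH02Gene25304, -1.04, SE 0.07). Of 4 tested genes of pyruvate dehydrogenase kinase, which switches off the entry of pyruvate into the mitochondrial cycle, 3 rose and 0 fell. Under total-count scaling 3 were higher and 1 lower. PH02Gene28969 had 694, 699, 694 and 685 FPKM at 20d, against 71.4, 72.2, 72.1 and 73.4 FPKM at 0d (log2 change 3.57, SE 0.02). PH02Gene07719 and PH02Gene32504 rose by 2.47 (SE 0.03) and 2.94 (SE 0.04). Together the kinases held 0.189 to 0.192% of FPKM at 20d and 0.0280 to 0.0305% at 0d.

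Asparagine synthetase 1 (PH02Gene23545), which moves an amide group from glutamine to aspartate, had 659, 661, 667 and 664 FPKM at 20d, against 45.6, 47.7, 48.3 and 50.8 FPKM at 0d. Each 20d library was above every 0d library (log2 change 4.1, SE 0.03, adjusted p = 2.54e-28). Of 13 genes of glutamine synthetase and glutamate synthase 6 were higher and 1 lower (median 0.74). Cytosolic glutamine synthetase 1-1 (PH02Gene04855), which fixes ammonium, had 378, 385, 397 and 389.7 FPKM at 20d, against 132, 131, 129.6 and 128 FPKM at 0d (log2 change 1.89, SE 0.02). The 1-3 gene (PH02Gene18457) and the root isozyme 2 gene (PH02Gene09906) rose by 1.48 (SE 0.06) and 1.42 (SE 0.02), whereas the 1-2 gene (PH02Gene11764) fell to 1.35 FPKM at 20d, against 31.01 FPKM at 0d. Amino acid catabolism had 13 of 50 genes higher and 11 lower, against 8 and 12 under total-count scaling. The bifunctional enzyme of lysine breakdown (PH02Gene50542) had 379, 473, 510.0 and 427 FPKM at 20d, against 268, 183, 210.5 and 243 FPKM at 0d, with a wide spread in both groups (log2 change 1.3, SE 0.14). Gamma-aminobutyrate transaminase 1 (PH02Gene01776) rose by 1.17 (SE 0.02). A pair of alanine-glyoxylate aminotransferase 2 homologs fell, homolog 2 (PH02Gene34285) with 73.7 ± 2.21 FPKM at 20d and 228 ± 1.93 FPKM at 0d and homolog 1 (PH02Gene27876) with 14.1 ± 0.808 FPKM at 20d and 60.04 ± 2.48 FPKM at 0d. Lysine synthesis had 13 of 19 genes lower and 0 higher (median -1.54), in a list added after the values were seen. Diaminopimelate epimerase (PH02Gene11773, log2 change -1.03, SE 0.07), diaminopimelate decarboxylase (PH02Gene47773, log2 change -1.85, SE 0.09) and 4-hydroxy-tetrahydrodipicolinate synthase 2 (PH02Gene21784, log2 change -1.72, SE 0.09) were the most abundant of those that fell. The epimerase call was lost without 0d replicate 2 (log2 change -1.0, just short of the limit) or without 20d replicate 3 (-0.99).

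Carriers of amino acids and peptides counted 36 higher and 24 lower of 89, against 28 and 32 under total-count scaling. AVT6B (PH02Gene35477), named after vacuolar amino acid transporters, had 326 ± 4.47 FPKM at 20d and 39.6 ± 1.48 FPKM at 0d (log2 change 3.35, SE 0.03). A WAT1-related gene (PH02Gene31810), of a family that includes a vacuolar auxin transporter of Arabidopsis, had 277, 284, 275 and 281 FPKM at 20d, against 2.05, 2.06, 1.90 and 2.68 FPKM at 0d (log2 change 7.32, SE 0.10). It was near the lower end of detection at harvest and abundant in all 20d libraries. Vacuolar amino acid transporter 1 genes fell, PH02Gene50836 by 2.59 (SE 0.09) and PH02Gene21241 by 1.17 (SE 0.06).

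Of 33 sugar transporters 20 were higher and 3 lower (median 2.04). SWEET6b (PH02Gene28963), of the family of carriers that let sugars pass down their gradient, had 80.9, 81.1, 82.2 and 83.5 FPKM at 20d, against 2.63, 2.12, 2.10 and 2.08 FPKM at 0d. It rose steeply in all libraries (log2 change 5.5, SE 0.06). SWEET2a (PH02Gene23178) had 73.2 ± 1.13 FPKM at 20d and 13.7 ± 1.08 FPKM at 0d (log2 change 2.73, SE 0.04) and the ERD6-like 4 carrier (PH02Gene27039) 84.6 ± 1.09 FPKM at 20d and 41.04 ± 0.875 FPKM at 0d (log2 change 1.36, SE 0.04). SWEET4a (PH02Gene37155), the most abundant at harvest, was not called, with 69.6 ± 0.965 FPKM at 20d and 82.6 ± 1.95 FPKM at 0d, and SWEET1a (PH02Gene10697) fell (log2 change -1.31, SE 0.18). Of 9 genes of the raffinose family 6 were higher and 1 lower. A pair of genes named as galactosyltransferases of raffinose synthesis rose, number 6 (PH02Gene11640) with 52.2, 53.6, 52.6 and 50.3 FPKM at 20d, against 9.99, 9.59, 8.75 and 9.18 FPKM at 0d (log2 change 2.79, SE 0.03) and number 2 (PH02Gene48920) with 40.2 ± 1.64 FPKM at 20d and 2.16 ± 0.250 FPKM at 0d (log2 change 4.53, SE 0.11). Whether their enzymes make raffinose was not tested. Galactinol synthase 2 (PH02Gene25695), which makes the substrate of raffinose synthesis, fell to 0.214 FPKM at 20d, against 2.21 FPKM at 0d.

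Of 36 genes that cleave or make sucrose 9 were higher and 13 lower. The sucrose synthase genes PH02Gene02657 and PH02Gene04423, whose enzyme splits sucrose in growing sinks, fell. PH02Gene02657 had 23.4, 23.5, 21.8 and 23.8 FPKM at 20d, against 243, 244, 245 and 247 FPKM at 0d (log2 change -3.09, SE 0.02), and PH02Gene04423 had 8.25 ± 0.722 FPKM at 20d and 129 ± 2.50 FPKM at 0d (log2 change -3.65, SE 0.04). The sucrose-phosphate synthase 3 genes PH02Gene11187 and PH02Gene13886, whose enzyme makes sucrose, rose. PH02Gene11187 had 93.6, 89.5, 90.7 and 94.2 FPKM at 20d, against 11.1, 11.5, 10.7 and 12.01 FPKM at 0d (log2 change 3.34, SE 0.04), and PH02Gene13886 changed by 1.57 (SE 0.04). A vacuolar invertase (PH02Gene05689) fell (log2 change -1.05, SE 0.04) and a mitochondrial neutral invertase (PH02Gene08042) rose (log2 change 2.1, SE 0.06). Of 27 genes of starch breakdown 8 were higher and 5 lower, against 7 and 7 under total-count scaling. Beta-amylase 1 (PH02Gene33818), which cuts maltose from starch in the plastid, had 102 ± 2.48 FPKM at 20d and 13.5 ± 1.05 FPKM at 0d (log2 change 3.23, SE 0.05), and alpha-glucan water dikinase (PH02Gene37432) rose by 1.20 (SE 0.02). The phosphoglucan phosphatase DSP4 (PH02Gene41288) was not called (log2 change -0.43, SE 0.03).

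Of 64 glycolysis genes 20 were higher and 14 lower, against 15 and 19 under total-count scaling. Cytosolic pyruvate kinase 1 (PH02Gene40830) had 185, 188, 183 and 178 FPKM at 20d, against 28.9, 29.3, 29.9 and 28.6 FPKM at 0d (log2 change 2.97, SE 0.03). Triosephosphate isomerase (PH02Gene28763) had 38.5 ± 1.39 FPKM at 20d and 206 ± 7.65 FPKM at 0d (log2 change -2.11, SE 0.03), and enolase 2 (PH02Gene03379) had 58.7 ± 1.80 FPKM at 20d and 187 ± 3.08 FPKM at 0d (log2 change -1.36, SE 0.03). Of 11 genes of fermentation 6 were lower and 0 higher (median -1.57). Alcohol dehydrogenase 1 (PH02Gene33378) had 35.6, 36.8, 38.1 and 36.4 FPKM at 20d, against 142, 141, 141 and 139.7 FPKM at 0d (log2 change -1.63, SE 0.02) and pyruvate decarboxylase 2 (PH02Gene12963) 11.8 ± 0.745 FPKM at 20d and 65.1 ± 1.57 FPKM at 0d (log2 change -2.15, SE 0.04). The most abundant member, alcohol dehydrogenase-like 2 (PH02Gene05455), was not called (log2 change -0.16, SE 0.02). The respiratory chain had 15 of 63 genes lower and 0 higher (median -0.68). Its share called lower lay near that over all genes, and under total-count scaling it was 30 of 63. A cytochrome c oxidase subunit (PH02Gene27925) had 22.02 ± 2.86 FPKM at 20d and 159.8 ± 3.86 FPKM at 0d (log2 change -2.54, SE 0.06). Among 9 genes that bypass or uncouple the chain 4 were higher and 1 lower. Uncoupling protein 1 (PH02Gene23797) had 126 ± 5.80 FPKM at 20d and 31.6 ± 1.74 FPKM at 0d (log2 change 2.31, SE 0.04), uncoupling protein 5 (PH02Gene13841) rose by 1.60 (SE 0.06), and an external alternative NAD(P)H dehydrogenase (PH02Gene26876) fell by 1.52 (SE 0.04).

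Of 277 cytosolic ribosomal protein genes 238 were lower and 2 higher at 20d (median -2.02). Their share of FPKM was 0.686 to 0.710% at 20d and 3.20 to 3.23% at 0d. The most abundant member over the 8 libraries, 60S L36a (PH02Gene33451), had 116, 124, 131 and 125 FPKM at 20d, against 386, 389, 398 and 403 FPKM at 0d (log2 change -1.35, SE 0.04). 40S S8-like (PH02Gene42751) had 21.3, 23.8, 22.6 and 23.6 FPKM at 20d, against 414, 415, 407 and 426 FPKM at 0d, the steeper fall (log2 change -3.87, SE 0.03). 60S L5-1 (PH02Gene29817) fell too (log2 change -2.39, SE 0.02). The exceptions were 60S L28-1-like (PH02Gene06519), with 86.6 ± 2.33 FPKM at 20d and 47.3 ± 1.77 FPKM at 0d (log2 change 1.19, SE 0.07), and 60S L35a-3 (PH02Gene14159), with 8.99 ± 0.492 FPKM at 20d and 5.34 ± 0.616 FPKM at 0d (log2 change 1.06, SE 0.24), and under total-count scaling 0 members were higher. In other parts of the machinery 29 of 62 organellar ribosomal proteins were lower and 5 higher. Translation factors counted 27 lower and 7 higher of 100, and ribosome biogenesis genes 29 lower and 2 higher of 101. The shares lower of these 2 lists, 27.0% and 28.7%, lay near the 24.5% over all genes. Under total-count scaling 34 of 100 and 32 of 101 were lower, beside 7698 of all 24944 genes. Elongation factor 1-delta 2 (PH02Gene20184, log2 change -1.8, SE 0.03) and nucleolin 2 (PH02Gene21984, log2 change -1.6, SE 0.03), a nucleolar protein of ribosome assembly, fell. Initiation factors 4G (PH02Gene07028, log2 change 1.44, SE 0.03) and 2D (PH02Gene06225, log2 change 1.44, SE 0.04) rose. Whether the share called differs between these lists was not tested.

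Of 137 splicing genes 25 were lower (18.2%) and 2 higher, both below the shares over all genes. Under total-count scaling 44 of the 137 were lower, beside 7698 of all 24944 genes. The SR protein SC35 (PH02Gene26164), which helps choose splice sites, had 41.9 ± 2.997 FPKM at 20d and 184 ± 2.10 FPKM at 0d (log2 change -1.82, SE 0.04). Of 35 chaperonin genes 16 were lower and 0 higher, with T-complex subunit eta (PH02Gene02106) at 8.93 ± 0.808 FPKM at 20d and 56.5 ± 1.06 FPKM at 0d (log2 change -2.35, SE 0.04). Heat shock proteins had 46 of 70 genes lower and 4 higher (median -1.86), or 52 lower and 1 higher under total-count scaling, and held 0.234 to 0.237% of FPKM at 20d and 0.672 to 0.680% at 0d. Heat shock protein 70 (PH02Gene35944), a chaperone of newly made and unfolded proteins, had 60.1, 62.04, 60.2 and 63.3 FPKM at 20d, against 623, 619.8, 612 and 618 FPKM at 0d (log2 change -3.02, SE 0.02). The heat shock cognate 70 kDa protein 2 gene (PH02Gene11794) fell as well (log2 change -1.92, SE 0.02). The stromal 70 kDa genes PH02Gene37505 and PH02Gene33841, for chaperones of the plastid, were higher, the second of them not under total-count scaling. They had 149 ± 1.82 FPKM at 20d and 53.5 ± 1.47 FPKM at 0d, and 50.01 ± 0.850 FPKM at 20d and 27.1 ± 0.949 FPKM at 0d, with log2 changes of 1.79 (SE 0.03) and 1.20 (SE 0.03).

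**Figure D4:**
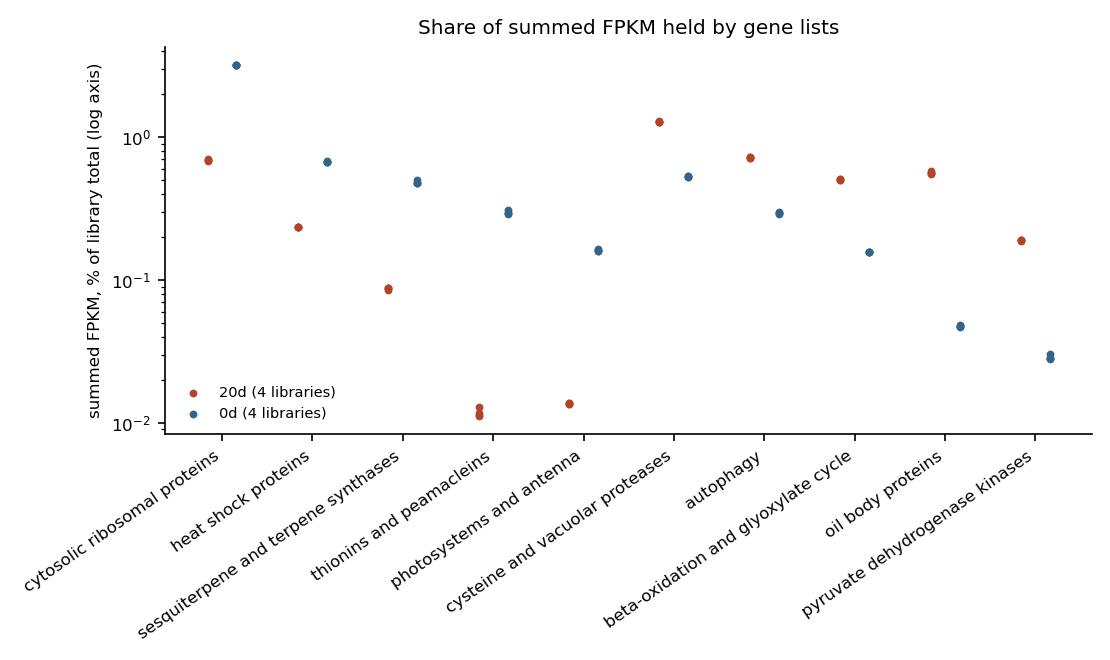
Summed FPKM of 10 gene lists as a percentage of the summed FPKM of each library (log axis), with the 4 libraries at 20d in red left of the 4 at 0d in blue. Ribosomal protein genes fell to 0.686 to 0.710% at 20d, against 3.20 to 3.23% at 0d, and oil body genes were at 0.554 to 0.579% at 20d, against 0.0467 to 0.0484% at 0d.

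Of 39 tested genes of photosystems and antennae 33 were lower and 0 higher (median -5.66). An antenna gene named chlorophyll a-b binding protein 2 (PH02Gene49412), the most abundant at harvest, had 0.138, 0.111, 0.112 and 0.287 FPKM at 20d, against 129, 122, 132 and 124 FPKM at 0d (log2 change -9.25, SE 0.11). The oxygen-evolving enhancer protein 1 gene (PH02Gene49304), of the complex that splits water, had 3.21 ± 0.352 FPKM at 20d and 52.9 ± 0.852 FPKM at 0d (log2 change -3.72, SE 0.07). Chlorophyll synthesis had 7 of 26 genes lower and 2 higher, the share lower (26.9%) near that over all genes.

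Expansins, which loosen walls during elongation, had 13 of 19 genes lower and 2 higher (median -2.45). Expansin-B4 (PH02Gene02934) had 0, 0.273, 0.0824 and 0.341 FPKM at 20d, against 33.2, 29.7, 32.6 and 28.3 FPKM at 0d (log2 change -7.09, SE 0.50), with 20d values near 0 in all libraries. Expansin-A10 (PH02Gene00624) had 3.02 ± 0.379 FPKM at 20d and 23.8 ± 1.37 FPKM at 0d (log2 change -2.66, SE 0.11), and expansin-like A1 (PH02Gene00824) rose by 1.30 (SE 0.04). The most abundant over the 8 libraries, expansin-like A2 (PH02Gene50483), was not called, with 36.1 ± 7.95 FPKM at 20d and 74.4 ± 0.922 FPKM at 0d, but passed the limit under total-count scaling (-1.05). Among 17 xyloglucan endotransglucosylases, which cut and rejoin hemicellulose chains, 10 were lower and 5 higher. The fallen PH02Gene25810 had 1.15 ± 0.131 FPKM at 20d and 67.8 ± 2.07 FPKM at 0d (log2 change -5.56, SE 0.22). A xyloglucan xyloglucosyl transferase gene (PH02Gene02746) on scaffold 8 had 535, 565, 569 and 565 FPKM at 20d, against 114, 109.9, 109.8 and 109 FPKM at 0d (log2 change 2.65, SE 0.04). It was the most abundant of the list at both times, and its neighbour PH02Gene02745 rose too (log2 change 3.33, SE 0.14). Of 15 cellulose synthases 9 were lower and 2 higher (median -1.64). Catalytic subunit 3 (PH02Gene49673) had 31.7, 30.4, 29.6 and 29.6 FPKM at 20d, against 137, 139, 138 and 141 FPKM at 0d (log2 change -1.88, SE 0.03), and the cellulose synthase genes PH02Gene30488 and PH02Gene20766 fell by 2.38 (SE 0.02) and 2.03 (SE 0.03). Subunit 5 (PH02Gene08830) went against them, with 123 ± 4.29 FPKM at 20d and 71.8 ± 1.43 FPKM at 0d (log2 change 1.09, SE 0.03). In the xylem list 5 of 8 tested genes were lower and 0 higher, among them the BoCesA7 genes PH02Gene13967 (4.80 ± 0.313 FPKM at 20d and 99.8 ± 2.55 FPKM at 0d) and PH02Gene35057 (10.9 ± 0.517 FPKM at 20d and 62.7 ± 1.11 FPKM at 0d). Of 19 arabinogalactan proteins, wall glycoproteins, 15 were lower and 1 higher (median -3.81), with fasciclin-like protein 1 (PH02Gene18743) at 1.75 ± 0.362 FPKM at 20d and 55.4 ± 2.62 FPKM at 0d (log2 change -4.66, SE 0.14).

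Other enzymes trim the wall polymers. Of 26 beta-xylosidases, arabinofuranosidases and galactosidases 13 were higher and 8 lower, in a list added after values were seen. Alpha-L-arabinofuranosidase 1-like (PH02Gene23576), which removes arabinose side chains, had 466, 466, 464 and 469 FPKM at 20d, against 38.7, 42.7, 40.6 and 42.3 FPKM at 0d. Beta-D-xylosidase 7 (PH02Gene38874) had 349, 349.6, 346 and 352 FPKM at 20d, against 14.8, 14.5, 16.7 and 15.4 FPKM at 0d. Both were higher in every 20d library, by 3.82 (SE 0.03) and 4.82 (SE 0.07). Beta-galactosidase 9 (PH02Gene38538) rose (log2 change 1.82, SE 0.03), and a second xylosidase 7 gene (PH02Gene06474) fell (log2 change -2.77, SE 0.06). Of 66 pectin genes 28 were lower and 16 higher, against 11 and 11 among those averaging 5 FPKM or more. Pectinesterase inhibitor 10 (PH02Gene20130) had 43.5 ± 1.47 FPKM at 20d and 1.79 ± 0.228 FPKM at 0d (log2 change 4.91, SE 0.15), and pectin acetylesterase 12-like (PH02Gene02441) had 10.7 ± 0.885 FPKM at 20d and 74.9 ± 2.61 FPKM at 0d (log2 change -2.49, SE 0.05).

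Of 14 laccases, copper enzymes that couple lignin monomers, 9 were higher and 2 lower (median 2.00). The neighbouring laccase-19-like (PH02Gene43658) and laccase-20-like (PH02Gene43657) genes on scaffold 7 had 20.6, 23.8, 22.6 and 23.8 FPKM and 15.3, 16.4, 14.8 and 14.6 FPKM at 20d. At 0d they had 1.27, 1.55, 0.891 and 1.33 FPKM and 0.188, 0.452, 0.221 and 0.447 FPKM. They rose by 4.49 (SE 0.16) and 5.86 (SE 0.27) and remain low in level beside the peroxidases. Of 40 class III peroxidases 13 were higher and 19 lower, but 10 higher and 5 lower among genes averaging 5 FPKM or more. Peroxidase 2-like (PH02Gene25200) had 471 ± 12.9 FPKM at 20d and 128 ± 4.07 FPKM at 0d (log2 change 2.19, SE 0.03), and peroxidase 3 (PH02Gene48469) had 43.9 ± 1.13 FPKM at 20d and 178 ± 5.47 FPKM at 0d (log2 change -1.7, SE 0.03). Lignin monomer enzymes counted 17 higher and 29 lower of 76. The most abundant, cinnamoyl-CoA reductase 1 (PH02Gene01704), was not called, with 918 ± 9.49 FPKM at 20d and 1493 ± 14.03 FPKM at 0d (log2 change -0.39, SE 0.02). One phenylalanine ammonia-lyase gene, the entry step of the pathway, rose (PH02Gene40450, log2 change 2.11, SE 0.05) and another fell (PH02Gene27016, log2 change -1.06, SE 0.04).

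O-methyltransferases divided evenly, 6 higher and 6 lower of 13, in a list added after values were seen. Naringenin 7-O-methyltransferase, which makes the phytoalexin sakuranetin in rice, is named by PH02Gene35698 and PH02Gene35701 on scaffold 11. PH02Gene35698 had 142, 143, 142 and 160.1 FPKM at 20d, against 0.264, 0, 0.194 and 0 FPKM at 0d (log2 change 10.48, SE 0.24, and 11.27 without 0d replicate 1). PH02Gene35701 had 70.8, 71.1, 66.2 and 44.5 FPKM at 20d, and 9 deposited counts in all at 0d, a ratio of 1452 (95% interval 372 to 5286). Both were near 0 at harvest. The ZRP4 O-methyltransferases PH02Gene41244 and PH02Gene39262 fell to 2.86 and 2.23 FPKM at 20d, against 74.02 and 43.9 FPKM at 0d. Of 18 terpene synthases 16 were lower and 1 higher (median -1.85), in a further list added after values were seen. Their share of FPKM was 0.0858 to 0.0884% at 20d and 0.478 to 0.501% at 0d. Farnesol/nerolidol synthase PH02Gene28702 had 8.64, 7.30, 8.47 and 8.66 FPKM at 20d, against 482, 548, 539 and 568 FPKM at 0d (log2 change -5.7, SE 0.06), its neighbour PH02Gene28703 had 4.73 ± 0.465 FPKM at 20d and 520.1 ± 10.5 FPKM at 0d (log2 change -6.47, SE 0.05), and PH02Gene31673 had 2.03 ± 0.265 FPKM at 20d and 510.2 ± 16.3 FPKM at 0d (log2 change -7.66, SE 0.08). A nerolidol synthase 1-like gene (PH02Gene46505) stayed abundant and was not called, with 324 ± 4.01 FPKM at 20d and 278 ± 8.69 FPKM at 0d, and germacrene D synthase (PH02Gene40249) rose (log2 change 1.42, SE 0.11).

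Of 69 PR proteins and chitinases 24 were higher and 30 lower, but 14 higher and 10 lower among genes averaging 5 FPKM or more. Against the loss of PRMS, the PR-1 gene PRB1-2 (PH02Gene19059) had 201, 188, 193 and 198 FPKM at 20d, against 1.54, 1.62, 1.74 and 0.923 FPKM at 0d (log2 change 7.35, SE 0.15), and the nearby PR-1a gene (PH02Gene19056) had 113 ± 7.75 FPKM at 20d and 1.19 ± 0.220 FPKM at 0d (log2 change 6.87, SE 0.16). Chitinase 5-like (PH02Gene03197) had 149.7 ± 7.61 FPKM at 20d and 1.82 ± 0.469 FPKM at 0d (log2 change 6.65, SE 0.11). These genes were close to 0 at harvest. Of 10 genes of small antimicrobial peptides, thionins and peamacleins, 9 were lower and 0 higher (median -6.21), and their share of FPKM was 0.0111 to 0.0130% at 20d and 0.289 to 0.307% at 0d. This list too was added after values were seen. Leaf-specific thionin PH02Gene28214 had 5.62, 5.07, 4.52 and 3.33 FPKM at 20d, against 405, 409, 405 and 502 FPKM at 0d (log2 change -6.22, SE 0.13), and peamaclein-like PH02Gene10467 had 44.6 ± 3.42 FPKM at 20d and 508 ± 20.04 FPKM at 0d (log2 change -3.19, SE 0.07). Glutathione S-transferases counted 36 lower and 14 higher of 68 (median -1.08). GSTF1 (PH02Gene33266) had 1067, 1056, 1057 and 1054 FPKM at 20d, against 348, 342, 344 and 351 FPKM at 0d (log2 change 1.93, SE 0.02), and F10-like (PH02Gene28681) had 35.9, 38.04, 37.1 and 38.8 FPKM at 20d, against 558, 545, 542 and 556 FPKM at 0d (log2 change -3.56, SE 0.03). The pair went in opposite directions. Of 51 antioxidant enzymes 14 were lower and 6 higher, the share lower (27.5%) near that over all genes. Against the fall of the main catalase, the genes named catalase isozyme B rose, PH02Gene29448 by 1.13 (SE 0.02) and PH02Gene19703 by 1.36 (SE 0.02).

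Of 16 aquaporins 8 were lower and 2 higher (median -1.17). PIP2-6 (PH02Gene26386), a water channel of the plasma membrane, had 28.1, 26.3, 27.1 and 28.2 FPKM at 20d, against 431, 414, 423 and 406 FPKM at 0d (log2 change -3.62, SE 0.06). A PIP1-1 gene (PH02Gene43726) had 0.799 ± 0.194 FPKM at 20d and 152 ± 4.17 FPKM at 0d (log2 change -7.25, SE 0.10), and TIP1-1 (PH02Gene03621), of the vacuole membrane, had 41.4 ± 1.95 FPKM at 20d and 216 ± 8.12 FPKM at 0d (log2 change -2.07, SE 0.05). The most abundant, another PIP1-1 gene (PH02Gene00514), had 209 ± 10.6 FPKM at 20d and 518 ± 15.2 FPKM at 0d and was not called, just inside the limit (log2 change -1.0, SE 0.04). It was called lower without 0d replicate 4 (-1.01) or 20d replicate 2 (-1.03), and under total-count scaling (-1.32). Of 9 dehydrins and other late embryogenesis proteins 4 were higher and 1 lower. The abundant DHN3 gene PH02Gene11487 was not called, with 178, 164, 179 and 176 FPKM at 20d, against 179, 156, 178 and 163 FPKM at 0d, and the groups overlapped. DHN1-like (PH02Gene07648) had 47.9 ± 2.29 FPKM at 20d and 3.65 ± 0.543 FPKM at 0d (log2 change 4.02, SE 0.08), and COR410 (PH02Gene01531) had 8.33 ± 0.546 FPKM at 20d and 50.5 ± 1.65 FPKM at 0d (log2 change -2.28, SE 0.06). Lipid transfer proteins had 19 of 29 genes lower and 5 higher (median -2.41). Phospholipid transfer protein 1 (PH02Gene03416) had 78.1, 88.6, 80.7 and 76.2 FPKM at 0d and counts in 20d replicate 4 only, lower by a ratio of 1199.8 (95% interval 376 to 5334), or at least 838-fold without that library. The non-specific lipid transfer protein PH02Gene08747 rose (log2 change 4.71, SE 0.11).

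The jasmonate list counted 30 lower and 4 higher of 56 (median -1.1). It takes in genes named as 9S-lipoxygenase and repressor genes, so it is no count of jasmonate synthesis alone. Linoleate 9S-lipoxygenase 2 (PH02Gene51050), of a family that oxidises fatty acids to oxylipins, had 38.97, 38.02, 37.8 and 38.7 FPKM at 20d, against 353, 316, 339 and 337 FPKM at 0d (log2 change -2.82, SE 0.06). 12-Oxophytodienoate reductase 11 (PH02Gene28163) had 159.9 ± 3.07 FPKM at 20d and 26.04 ± 1.16 FPKM at 0d (log2 change 2.93, SE 0.06), and the jasmonate repressor TIFY 11c (PH02Gene40897) had 149.5 ± 2.21 FPKM at 20d and 27.1 ± 0.557 FPKM at 0d (log2 change 2.78, SE 0.04). Of 26 abscisic acid genes 10 were lower and 2 higher. A 9-cis-epoxycarotenoid dioxygenase (PH02Gene49504), the enzyme that commits carotenoids to abscisic acid, had 2.31 ± 0.413 FPKM at 20d and 29.7 ± 1.17 FPKM at 0d (log2 change -3.36, SE 0.09). Among 23 ethylene genes 7 were lower and 3 higher. ACC oxidase (PH02Gene22088), which releases ethylene, had 1.45, 2.15, 1.64 and 1.28 FPKM at 20d, against 91.3, 91.6, 93.1 and 87.05 FPKM at 0d (log2 change -5.46, SE 0.09). Of 16 gibberellin genes 5 were higher and 3 lower, or 2 and 2 among genes averaging 5 FPKM or more. Gibberellin 2-beta-dioxygenase (PH02Gene00807), which inactivates the hormone, had 43.4 ± 2.40 FPKM at 20d and 10.3 ± 0.104 FPKM at 0d (log2 change 2.39, SE 0.07), and the growth repressor DELLA SLN1 (PH02Gene13923) fell (log2 change -1.52, SE 0.06). Of 82 auxin genes 30 were lower and 20 higher, against 37 and 13 under total-count scaling, with the repressor IAA17 (PH02Gene26638) at 0.709 ± 0.217 FPKM at 20d and 109 ± 2.54 FPKM at 0d (log2 change -6.9, SE 0.09) and IAA6 (PH02Gene41082) at 179 ± 4.45 FPKM at 20d and 71.4 ± 2.32 FPKM at 0d (log2 change 1.64, SE 0.03). Cytokinin genes counted 17 higher and 11 lower of 47, and the receptor-type histidine kinase 3 (PH02Gene07260) rose (log2 change 1.43, SE 0.02).

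NAC factors, a plant family with members that drive senescence, had 33 of 70 genes higher and 18 lower (median 0.72). A separate list of senescence-associated genes had 3 higher and 5 lower of 10 (median -1.1), and 3 and 7 under total-count scaling. NAC29-like genes were the most abundant of the NAC genes that rose. PH02Gene22100 had 364 ± 6.60 FPKM at 20d and 198 ± 4.20 FPKM at 0d (log2 change 1.2, SE 0.02), PH02Gene03448 had 307, 312, 306 and 314 FPKM at 20d, against 112, 112, 113 and 110.5 FPKM at 0d (log2 change 1.78, SE 0.02), and PH02Gene19528 had 316 ± 2.81 FPKM at 20d and 72.5 ± 1.97 FPKM at 0d (log2 change 2.44, SE 0.02). The stress responsive NAC gene PH02Gene04473 had 12.2, 14.01, 13.6 and 13.4 FPKM at 20d, against 403, 400.1, 401 and 378 FPKM at 0d (log2 change -4.58, SE 0.04). The other families counted 12 higher and 16 lower of 52 WRKY genes, 26 and 29 of 95 MYB genes, 16 and 16 of 62 AP2/ERF genes and 16 and 19 of 66 bHLH genes. Among genes averaging 5 FPKM or more the counts were 16 higher and 12 lower for MYB and 10 higher and 6 lower for bHLH. Within them single genes moved far. ERF1-like (PH02Gene38917), the most abundant of the AP2/ERF genes over the 8 libraries, had 692 ± 7.10 FPKM at 20d and 321 ± 8.79 FPKM at 0d (log2 change 1.42, SE 0.02). WRKY18 (PH02Gene13855) had 2.59 ± 0.358 FPKM at 20d and 83.9 ± 4.28 FPKM at 0d (log2 change -4.7, SE 0.14), and MYB61 (PH02Gene04302), a regulator of secondary walls in rice, had 1.59 ± 0.0567 FPKM at 20d and 30.5 ± 0.959 FPKM at 0d (log2 change -3.94, SE 0.12). bHLH13 (PH02Gene22432) rose (log2 change 1.73, SE 0.02), and bHLH35-like PH02Gene12145 fell to 0.0893 FPKM at 20d, against 56.4 FPKM at 0d (log2 change -8.93, SE 0.30, and -9.66 without 20d replicate 1).

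Tubulin and actin genes counted 24 lower and 3 higher of 51 (median -0.97). Tubulin alpha-4 (PH02Gene46714) had 141, 146, 142 and 138 FPKM at 20d, against 469.6, 479, 472 and 491 FPKM at 0d (log2 change -1.44, SE 0.02), and actin-3 (PH02Gene08317) had 10.7 ± 0.560 FPKM at 20d and 122 ± 3.28 FPKM at 0d (log2 change -3.2, SE 0.04). Histone H2B.2-like (PH02Gene44357) rose (log2 change 1.2, SE 0.05) and H3.3 (PH02Gene23530) fell (log2 change -1.21, SE 0.03), in a list of 39 with 6 higher and 11 lower, or 5 higher and 4 lower among genes averaging 5 FPKM or more. DNA replication genes were 13 higher and 11 lower of 58, against 7 and 15 under total-count scaling. Genes of cyclins and mitosis were 20 higher and 38 lower of 149, the share lower (25.5%) near that over all genes. The KNOX genes went both ways, with PH02Gene46847 at 168 ± 2.70 FPKM at 20d and 51.2 ± 1.51 FPKM at 0d and PH02Gene12436 at 3.34 ± 0.127 FPKM at 20d and 58.7 ± 1.54 FPKM at 0d.

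The 20d libraries were also set against the 6d libraries, to show where the last 14 days differed from the stored time before them. Of the 24944 genes, 3163 were called higher at 20d than at 6d (12.7%) and 3545 lower (14.2%). This comparison shares the 20d libraries with the one above, so values are only given side by side. The WAT1-related gene PH02Gene31810 was at 279 FPKM at 20d and 2.52 FPKM at 6d (log2 change 6.92, SE 0.10), and beta-D-xylosidase 7 (PH02Gene38874) at 349 FPKM at 20d and 10.5 FPKM at 6d (log2 change 5.19, SE 0.08). At 0d these genes had been at 2.17 and 15.4 FPKM. Leaf-specific thionin PH02Gene28214 was at 4.63 FPKM at 20d and 3761 FPKM at 6d (log2 change -9.52, SE 0.13), the 6d level lying above that of harvest. Sucrose synthase PH02Gene02657 was at 23.2 FPKM at 20d and 217 FPKM at 6d (log2 change -3.09, SE 0.02), so most of its fall came late, as did that of 40S S8-like (PH02Gene42751; log2 change -3.59, SE 0.03). PRMS, in contrast, was at 57.04 FPKM at 20d and 71.2 FPKM at 6d (log2 change -0.18, SE 0.03). Caleosin (log2 change 1.8, SE 0.02) and endonuclease 2 PH02Gene20219 (log2 change 1.88, SE 0.02) rose further after 6d, and asparagine synthetase 1 had a smaller difference, below the limit (log2 change 0.9, SE 0.03). Of the 277 cytosolic ribosomal proteins 166 were lower and 1 higher than at 6d. Of the 39 photosystem genes 25 were lower and 1 higher, and of the 70 heat shock proteins 28 lower and 1 higher. Autophagy had 5 of 34 members higher than at 6d, near the 12.7% over all genes, and 0 lower. Of the 32 cysteine and vacuolar proteases 11 were higher and 2 lower, and of the 14 laccases 9 higher and 2 lower.

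**Figure D5:**
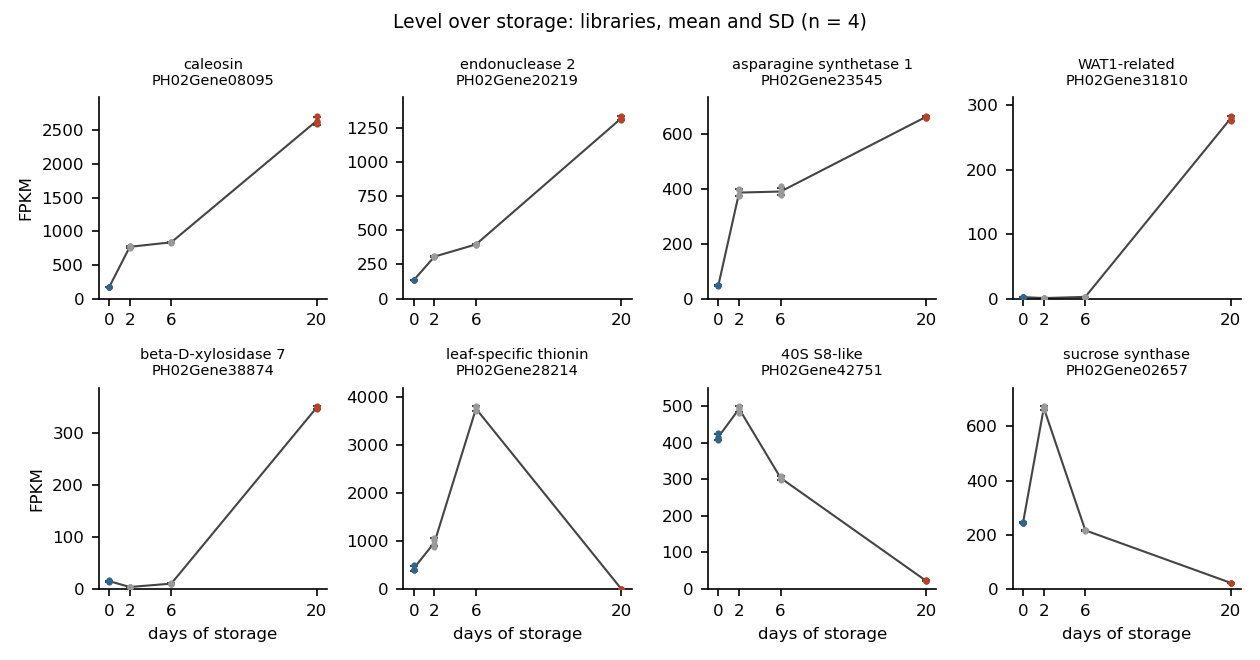
FPKM over days of storage for 8 genes, with each library as a point (blue 0d, grey 2d and 6d, red 20d) and lines joining means with SD (n = 4). The WAT1-related gene and beta-D-xylosidase 7 were low up to 6d and high at 20d, the thionin peaked at 6d, and 40S S8-like and sucrose synthase were lowest at 20d.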

How the data were processed

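The authors deposited 1 table with an FPKM and a count column per library, named as such per the file headers, for 50936 genes with scaffold coordinates and descriptions. For the aligner, the counter, its strand setting and the build, the answer is not given in the sources used here. The deposited counts were treated as estimated counts, since 35.2% of the counts between 1 and 19 were multiples of 4. The value of 4 counts per fragment is an assumption, as most of these low counts were not multiples of 4. The floor, the bounds, the intervals and the counting noise given above rest on it. Genes averaging 1 FPKM or more over the 16 libraries were tested with edgeR 4.0.16 (R 4.3.3; TMM scaling, robust quasi-likelihood fit over all 4 times, Benjamini-Hochberg adjustment over all genes tested). DESeq2 1.42.0, limma 3.58.1 on log2(FPKM + 1) and log2(FPKM + 5), other scalings, filters and sample sets served as alternatives. The code was tested on simulated data. Within described genes, the text names the 8 rises and falls largest by fitted log2 change, the 8 largest gains and losses in mean FPKM, and per list up to 3 called members in each direction and the most abundant member. Which of these are printed, and which are set beside 6d, was chosen after their values were seen. Members and lists were chosen with earlier results of these data known. Bounds and intervals (exact, 95%) cover counting error only.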

Additional observations from a re-analysis of the deposited data

Results flagged for a closer look

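In a group of 4 libraries a value stands apart when its gap to the nearest other library exceeds Dixon's 95% critical value for that gap as a share of the group's range. Of 436 groups of 4 values behind the genes and list shares of the text, 29 held such a value, and chance alone flags about 1 in 20 groups. Each is given as measured, with no explanation. Gibberellin 2-beta-dioxygenase (PH02Gene00807) had 47.0 FPKM in 20d replicate 1 and a median of 42.2 FPKM in the other 3 libraries of that time. Xyloglucan xyloglucosyl transferase (PH02Gene02746) had 535 FPKM in 20d replicate 1 and a median of 565 FPKM in the other 3 libraries of that time. Autophagy-related protein 3 (PH02Gene02916) had 179.5 FPKM in 20d replicate 1 and a median of 176 FPKM in the other 3 libraries of that time. Dehydrin DHN3 (PH02Gene11487) had 164 FPKM in 20d replicate 2 and a median of 178 FPKM in the other 3 libraries of that time. DELLA protein SLN1 (PH02Gene13923) had 8.50 FPKM in 20d replicate 1 and a median of 6.94 FPKM in the other 3 libraries of that time. Peroxidase 2-like (PH02Gene25200) had 451 FPKM in 20d replicate 1 and a median of 477 FPKM in the other 3 libraries of that time. 12-oxophytodienoate reductase 11 (PH02Gene28163) had 155 FPKM in 20d replicate 1 and a median of 161 FPKM in the other 3 libraries of that time. (E, E)-farnesol/(E)-nerolidol synthase (PH02Gene28702) had 7.30 FPKM in 20d replicate 2 and a median of 8.64 FPKM in the other 3 libraries of that time. Triacylglycerol lipase SDP1 (PH02Gene29184) had 189 FPKM in 20d replicate 3 and a median of 191 FPKM in the other 3 libraries of that time. Catalase isozyme B (PH02Gene29448) had 236 FPKM in 20d replicate 2 and a median of 232 FPKM in the other 3 libraries of that time. Naringenin 7-O-methyltransferase (PH02Gene35698) had 160.1 FPKM in 20d replicate 4 and a median of 142 FPKM in the other 3 libraries of that time. (3S,6E)-nerolidol synthase 1-like (PH02Gene46505) had 318 FPKM in 20d replicate 3 and a median of 325 FPKM in the other 3 libraries of that time. Diaminopimelate decarboxylase (PH02Gene47773) had 5.71 FPKM in 20d replicate 1 and a median of 4.81 FPKM in the other 3 libraries of that time. Expansin-like A1 (PH02Gene00824) had 20.2 FPKM in 0d replicate 3 and a median of 21.3 FPKM in the other 3 libraries of that time. Pectin acetylesterase 12-like (PH02Gene02441) had 71.0 FPKM in 0d replicate 2 and a median of 76.3 FPKM in the other 3 libraries of that time. Xyloglucan endotransglucosylase/hydrolase protein 23 (PH02Gene02745) had 3.29 FPKM in 0d replicate 3 and a median of 2.23 FPKM in the other 3 libraries of that time. Autophagy-related protein 3 (PH02Gene02916) had 69.2 FPKM in 0d replicate 3 and a median of 68.3 FPKM in the other 3 libraries of that time. Aquaporin TIP1-1 (PH02Gene03621) had 204 FPKM in 0d replicate 3 and a median of 220.3 FPKM in the other 3 libraries of that time. Stress responsive NAC transcription factor (PH02Gene04473) had 378 FPKM in 0d replicate 4 and a median of 401 FPKM in the other 3 libraries of that time. Proteasome subunit alpha type-2 (PH02Gene16939) had 97.8 FPKM in 0d replicate 4 and a median of 114 FPKM in the other 3 libraries of that time. Leaf-specific thionin (PH02Gene28214) had 502 FPKM in 0d replicate 4 and a median of 405 FPKM in the other 3 libraries of that time. Bidirectional sugar transporter SWEET6b (PH02Gene28963) had 2.63 FPKM in 0d replicate 1 and a median of 2.10 FPKM in the other 3 libraries of that time. Triacylglycerol lipase SDP1 (PH02Gene29184) had 15.1 FPKM in 0d replicate 4 and a median of 12.9 FPKM in the other 3 libraries of that time. Citrate synthase (PH02Gene31942) had 134 FPKM in 0d replicate 2 and a median of 130.3 FPKM in the other 3 libraries of that time. Thaumatin-like protein (PH02Gene32525) had 13.6 FPKM in 0d replicate 3 and a median of 15.2 FPKM in the other 3 libraries of that time. Phenylalanine ammonia-lyase (PH02Gene40450) had 72.4 FPKM in 0d replicate 2 and a median of 78.4 FPKM in the other 3 libraries of that time. Peroxidase 3 (PH02Gene48469) had 169.7 FPKM in 0d replicate 4 and a median of 181 FPKM in the other 3 libraries of that time. Expansin-like A2 (PH02Gene50483) had 75.7 FPKM in 0d replicate 3 and a median of 73.9 FPKM in the other 3 libraries of that time. The summed pyruvate dehydrogenase kinases held 0.0305% of FPKM in 0d replicate 4 and a median of 0.0283% in the other 3 libraries of that time.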

How the results depend on the processing

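Against 4863 genes higher and 6106 lower at 20d than at 0d, limma on log2(FPKM + 1) called 2932 higher, and limma on log2(FPKM + 5) called 1778 higher and 3443 lower, 5221 in all. Raising the filter to a mean FPKM of 5 left 16195 genes and 2867 higher and 3370 lower, 6237 in all, and with no filter 9543 were lower among 40101 genes. Total-count scaling gave 3455 higher and 7698 lower. For 20d against 6d, with 3163 higher and 3545 lower, 6708 in all, limma on log2(FPKM + 1) called 1894 higher, limma on log2(FPKM + 5) 904 higher and 960 lower (1864 in all), and the stricter filter 1664 higher and 1785 lower (3449 in all), while 5505 were lower with no filter. The filters change how many genes are tested; of the other differences the cause was not tested. Leaving out 1 library at a time gave 10941 to 10994 calls, 4852 to 4881 higher and 6089 to 6128 lower, against 0d, and 3131 to 3172 higher and 3507 to 3560 lower against 6d. The replicate block gave 10971 calls, 4869 higher and 6102 lower. Deviations of same-numbered libraries of the 2 times from their group means had correlations of -0.04, 0.11, -0.23 and 0.13. Unlike-numbered libraries had -0.20 to 0.27. With values so alike and so little spread between replicates, this cannot decide whether the numbers pair the libraries. Of 214 genes named, 182 kept their call under each of the 19 alternatives that tested them, and none reversed. Low-count genes are limited by depth, and their ratios by a floor of 3 fragments.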

Other observations

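Among 110 KEGG pathways of the deposited annotation with at least 20 tested genes, nicotinate and nicotinamide metabolism, which makes and recycles NAD, had 22 of 52 genes higher at 20d (42.3%) and 2 lower, with a median log2 change of 0.74, beside 19.5% higher and 24.5% lower over all genes. Cutin, suberine and wax biosynthesis, which builds surface barriers, had 13 of 34 higher (38.2%) and 7 lower. The larger list of wax and cutin genes made from the descriptions had 23 of 75 higher (30.7%) and 26 lower (34.7%). Both lay above the shares over all genes, and the median log2 change of the list was 0.06. Under total-count scaling 18 were higher and 32 lower, and among genes averaging 5 FPKM or more 11 and 11. These pathways were picked after their counts were seen, and pathways share genes.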
